A study of Mus musculus with 2 samples.

Results

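Pax6, Emx1, Emx2, Lhx2, Dmrta2 and Dmrt3 are 6 transcription factor genes that set up the pallium, the dorsal part of the embryonic telencephalon that forms the cerebral cortex. They were chosen by name, and all 6 had a row among the 28001 genes of the first library and the 32286 of the second. The study used single-cell RNA-seq to ask where Dbx1 and adhesion genes are expressed in mouse progenitors and neurons, and it made 1 droplet library for each of 2 dissections of C57BL/6J embryos. The library of septal explants pooled tissue from around the septum, the most medial and rostral telencephalic wall, of 8 PGKCre;Rosa26YFP embryos at E11.5 and 4 Dbx1Cre;Rosa26tdTomato embryos at E12.5. PGKCre is driven by a ubiquitous promoter and Dbx1Cre by a gene of restricted progenitor domains, so YFP should be general and tdTomato should mark cells with a history of Dbx1 expression. The telencephalic vesicle library pooled the vesicles of 3 wild-type embryos and carried no reporter. Their stage is E12 by the sample title and E11.5 to E12 by the paper. The label's genotype entry reads wild-type for both libraries.

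Each library is a pool with no map from cells to embryos, so there was 1 sample per dissection and no test could be made. The libraries also differed in stage, dissection, chemistry and software. Levels were therefore compared within a library only, and agreement between libraries means that the same order was seen in each. Values are unique molecular identifiers (UMIs), which count captured mRNA molecules. UMIs summed over a class of cells are given per 1000000 UMIs of that class (CPM) with an exact 95% Poisson interval in parentheses, and shares of cells with an exact Clopper-Pearson interval. Both cover counting error only, not the spread between embryos.

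The telencephalic wall is patterned by signals from its edges. The cortical hem at the medial edge releases Wnt and Bmp proteins, and the antihem at the lateral edge releases Sfrp2, Fgf and Egf family factors. Pax6, a paired-domain homeobox gene, is graded with its high end ventrolaterally. Emx2, an empty spiracles homeobox gene, and the doublesex-related zinc-finger genes Dmrta2 and Dmrt3 are graded with their high end medially, and Emx1 marks the pallium and its glutamatergic neurons. Lhx2, a LIM-homeodomain gene, is required for cortical identity and holds back hem and antihem fates. Apical progenitors (APs) divide at the ventricle and give rise to basal progenitors (BPs), which express Eomes and divide once more before forming neurons.

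All 6 genes lie on the plus strand of mm10. By the GENCODE annotation Lhx2 spans chr2:38339281-38369733, Pax6 chr2:105668900-105697364, Dmrta2 chr4:109978053-109983687, Emx1 chr6:85187438-85204462, Dmrt3 chr19:25610301-25623921 and Emx2 chr19:59458372-59465357. RefSeq promoter windows of build GRCm38.p6, from 250 bases before to 50 bases after an annotated start, were found for all 6 genes, 8 windows in total. All 8 were rich in CpG dinucleotides, with 15 to 37 against a median of 7 over 32851 promoter windows of mouse genes. The CCAAT letters, read on both strands, were in 4 of the 8 windows and in 37.4% of all windows. The upstream Pax6 window and the Dmrta2 window are shown because the results below separate these genes at the medial and the lateral end of the pallium and because both lie almost wholly upstream of the GENCODE gene. Capitals mark CCAAT, which occurs once in the first and at 3 places in the second.
Pax6, chr2:105668646-105668945: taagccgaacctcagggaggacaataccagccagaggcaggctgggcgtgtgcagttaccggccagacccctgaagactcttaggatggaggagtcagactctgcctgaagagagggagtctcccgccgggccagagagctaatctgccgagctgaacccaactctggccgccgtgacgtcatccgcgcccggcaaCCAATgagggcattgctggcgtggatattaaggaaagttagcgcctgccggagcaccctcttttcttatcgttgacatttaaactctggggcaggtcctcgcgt
Dmrta2, chr4:109977775-109978074: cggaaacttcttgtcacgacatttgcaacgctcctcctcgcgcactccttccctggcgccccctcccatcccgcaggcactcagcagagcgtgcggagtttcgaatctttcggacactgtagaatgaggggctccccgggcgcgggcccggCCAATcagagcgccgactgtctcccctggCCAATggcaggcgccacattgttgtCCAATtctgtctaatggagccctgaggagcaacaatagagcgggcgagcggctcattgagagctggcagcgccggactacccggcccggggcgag
Both windows are plus-strand sequence written 5′ to 3′. A match describes the letters and is not evidence that a factor binds there. Emx2 has an antisense neighbour, Emx2os, at chr19:59425104-59458635 on the minus strand, that overlaps it by 264 bases, all exonic. Pax6os1, at chr2:105536080-105670330, overlaps the first 1431 bases of Pax6 with 0 shared exonic bases.

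The septal library held 5827 barcodes with 3902 to 84281 UMIs each, and the vesicle library 14283 with 500 to 207131. After filters on mitochondrial reads and called doublets (60 and 713 cells), 5384 and 11758 cells remained, and 1 barcode sequence was common to both lists. Clusters made without the 6 genes were named from marker lists, and each name carries "-like" because it rests on markers. Pallial-like APs were 1219 cells in 4 clusters of the septal library and 1069 cells in 2 clusters of the vesicle library. Ventral pallial-like APs (703 cells) and choroid plexus-like cells (321) were classes of the vesicle library only. The ventral pallial-like class was 1 cluster that reached 3 markers of its list. At full depth Gsx2, a subpallial marker, was found in 29.0% of its cells, against 2.42% and 4.52% in the pallial-like clusters of that library. In its subpallial-like clusters Gsx2 ran from 17.7% to 58.7%, so the ventral pallial-like class may not be wholly pallial. One septal pallial-like cluster, led by Smtn, Arhgef39 and Plk1, had Gsx2 in 17.1% of cells, and the others in 1.33% to 4.16%. The 4 clusters ran from 169 to 333 CPM of Pax6, 140 to 288 of Emx1 and 317 to 787 of Lhx2. The one led by Smtn had the most Pax6 and the least Emx1 and Lhx2. Septal folds of this class are averages over unlike clusters. The septal hem-like cluster also carried choroid plexus markers, and a choroid plexus-like class of 78 septal cells was found at a Leiden resolution of 2.5 and one of 83 with the members kept among the clustering genes. Among the neurons of the septal library, 405 cells in 2 clusters carried no name, and in the vesicle library 892 unnamed cells were shallow. To compare shares, each cell was reduced at random to 8000 UMIs in the septal library and 3500 in the vesicle library, which left out 511 and 1145 shallower cells.

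Free RNA in droplets gives UMIs of a gene in cells that do not make it, so non-neural cells, mostly of blood and vessels, served as the reference. These were 70 cells of the septal library (median 19923.5 UMIs), 26 erythroid-like and 44 of a cluster led by Pf4, Lum and Col3a1 with both macrophage and mesenchyme markers, and 494 macrophage-, erythroid- and endothelial-like cells of the vesicle library (median 6066.5), whereas pallial-like APs had medians of 16361 and 11328. Shares at the fixed depth are given with the share before thinning. At the fixed depth, Lhx2 was found in 29.2% (18.6 to 41.8, unthinned 45.7%) of them in the septal library and Emx2 in 24.6% (14.8 to 36.9, unthinned 42.9%). Pax6, Emx1 and Dmrta2 lay between 6.15% and 12.3% there, and Dmrt3 at 3.08%. The 6 reference shares of the vesicle library ran from 1.13% for Dmrt3 to 6.77% for Lhx2. Both references were uneven. In the septal library the erythroid-like cells held 28.8 CPM of Pax6, 35.7 of Emx1 and 107 of Lhx2. The cluster led by Pf4 held 12.6, 21.4 and 36.4. In the vesicle library the 28 endothelial-like cells held 54.9 CPM of Pax6, 28 of Emx1 and 132 of Lhx2. Its 66 macrophage-like cells held 20.4, 7.86 and 73.1, and its 400 erythroid-like cells 5.54, 3.46 and 20.1. Mesenchyme-like cells, which were left out of this reference, held 6.07, 2.46 and 17.5. A share whose interval reached that of the pooled reference is read below as background, which means no more than that overlap.

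**Figure D1:**
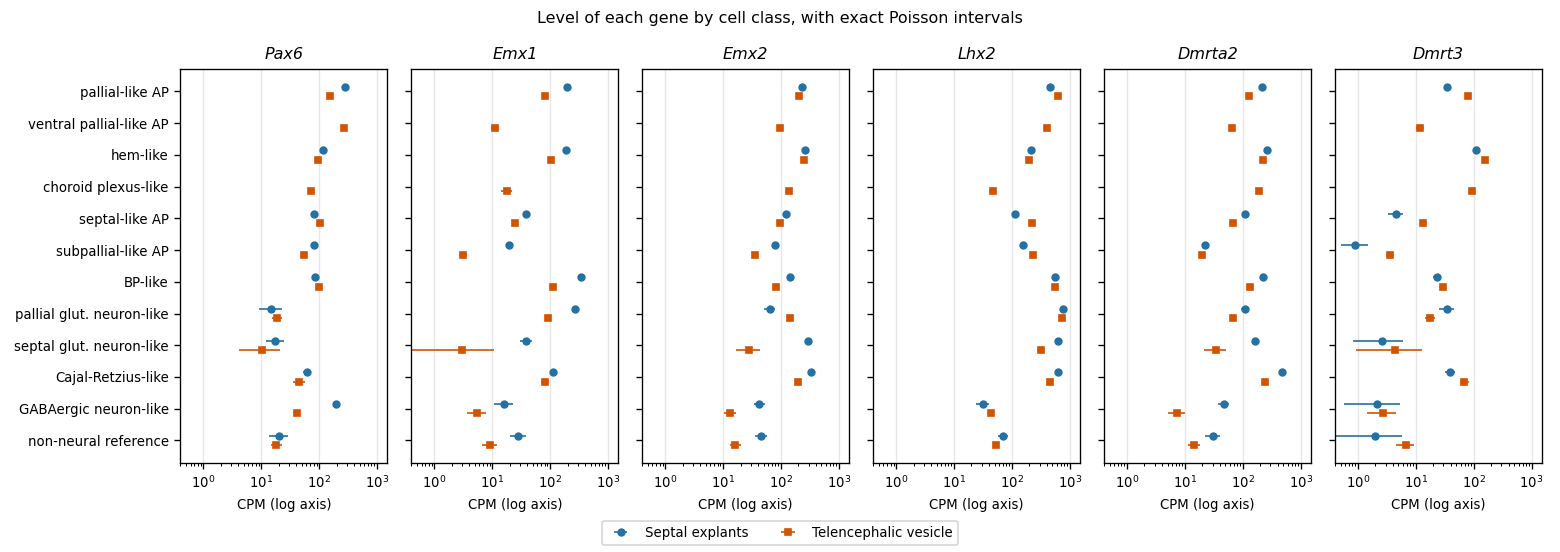
Level of each of the 6 genes in 12 cell classes, in CPM on a log axis, with exact Poisson intervals as bars (a few lower ends run past the axis). Circles are the septal explants and squares the telencephalic vesicle; no point means that the class was not found. Pax6 was lowest in the named glutamatergic-like neurons and reference cells, Lhx2 was high in pallial glutamatergic-like but not in GABAergic-like neurons, and Dmrt3 was highest in hem-like progenitors in both libraries.

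Pax6 had its highest levels in pallial-like APs, or in ventral pallial-like APs where that class was found, and was not confined to progenitors. In the septal library its level was 284 CPM (277 to 292) in pallial-like APs, an average over clusters of 169 to 333 CPM. At 8000 UMIs 83.2% (80.97 to 85.3, unthinned 94.01%) of these cells were positive. A septal AP cluster of 127 cells, led by Col25a1, Pcdh9 and Pcdh10, could not be given 1 region. Its level, 294 (267 to 322), was within counting error of that average. Hem-like progenitors followed with 116 (103 to 130.0), and septal-like and subpallial-like APs were equal within counting error at 80.6 and 80.5. The order in the vesicle library began with ventral pallial-like APs at 265 CPM (256 to 274). Pallial-like APs held 155 (150.3 to 159.9). In APs, Pax6 therefore peaked outside the pallial-like class in the library that held ventral pallial-like cells.

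The named pallial glutamatergic-like neurons had no more Pax6 than the pooled reference cells. They held 14.9 CPM (9.11 to 23.03) in the septal and 18.8 CPM (15.4 to 22.7) in the vesicle library, with intervals that overlapped those of reference cells, 20.3 (13.8 to 28.9) and 18.3 (14.7 to 22.4). The vesicle neurons were above the erythroid-like and mesenchyme-like cells of their library, at 5.54 and 6.07 CPM. The overlap does not hold for the septal library when its unnamed neurons are added, since the 2 clusters had 36.8 and 60.5 CPM and the joined class 37.1 (32.5 to 42.1). Cajal-Retzius-like cells held 62.1 (52.9 to 72.4) and 44.9 (35.3 to 56.3). GABAergic-like neurons stood out with 195 CPM (176 to 216) in the septal library. Of those 167 cells 39.6% (31.7 to 47.9, unthinned 40.7%) had a UMI, and at full depth the positive cells held 5.47 UMIs each on average. The 3 GABAergic-like clusters of the vesicle library differed, with 9.44 CPM in the one led by Lhx8 and Lhx6, 66.1 in one led by Gm45680 and B020031H02Rik and 56.7 in one led by Tac1. The subclass led by Lhx8 and Lhx6, genes of medial ganglionic eminence neurons, was thus the low one.

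Among subpallial-like APs the Pax6 level also differed by cluster. The clusters with Nkx2-1 or Shh, genes of the most ventral telencephalon, among their leading genes had 9.88 and 13.1 CPM in the septal library and 6.95 in the vesicle library. The other subpallial-like clusters had 62.3 to 113 CPM and 30.6 to 109. Emx2 followed the same order, with 13.4 and 33.4 CPM against 70.9 to 100.2 in the septal library and 8.43 against 31.1 to 60.2 in the vesicle library. Both genes thus reached into most subpallial-like clusters and were lowest in those with the most ventral markers.

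Emx1 marked the pallial lineage including its neurons. In the septal library BP-like cells had the most, 348 CPM (333 to 362), followed by pallial glutamatergic-like neurons with 268 (241 to 298). Pallial-like APs, at 196 (190.4 to 202), and hem-like progenitors, at 191 (174 to 209), did not differ beyond counting error. Septal-like APs held 37.7 (34.2 to 41.4), and subpallial-like APs, at 19.6 (17.6 to 21.9), were no higher than reference cells at 28.2 (20.4 to 37.98). In the vesicle library the neighbours BP-like (112 CPM), hem-like (102), pallial neuron-like (90.3), pallial AP-like (81.9) and Cajal-Retzius-like (81.5) each overlapped the next within counting error. Ventral pallial-like APs held 11.2 (9.42 to 13.1), and 3.03% (1.88 to 4.59, unthinned 12.7%) of them were positive against 2.03% (0.933 to 3.82, unthinned 4.45%) of reference cells. Emx1 therefore did not exceed the pooled reference in subpallial-like APs of both libraries, and its share in ventral pallial-like APs overlapped that of the reference. The ventral pallial-like level was above that of erythroid-like and mesenchyme-like cells, at 3.46 and 2.46 CPM, so a low expression there is not excluded.

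Within BPs, Emx1 separated the 2 septal-library clusters. The cluster led by Neurog2, Neurod4 and Tfap2c, a pallial set, held 471 CPM of Emx1, 695 of Lhx2 and 108 of Pax6. The cluster led by Shox2 and Chodl held 93.6, 273 and 34.3 of the same genes. Emx2 did not separate them, with 142 and 138 CPM.

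Emx2 was high in hem-like and pallial-like progenitors and in some neuron classes, and lower in septal-like APs. In the septal library Cajal-Retzius-like cells, the early layer 1 neurons that make Reln, had 327 CPM (305 to 349.7), and septal glutamatergic-like neurons 297 (273 to 322). Hem-like progenitors held 258 (239 to 279) and pallial-like APs 231 (225 to 237), so these neighbours were separated by little. Septal-like APs held 122 (116 to 128), above subpallial-like APs with 78.1 (73.9 to 82.5). The unnamed neuron clusters held 291 and 279 CPM and the named pallial glutamatergic-like neurons 64.1. In the vesicle library hem-like progenitors were highest with 246 CPM (237 to 256), and pallial-like APs, at 206 (200.2 to 211), did not differ from Cajal-Retzius-like cells, at 200.1 (179 to 223). Septal-like and ventral pallial-like APs were equal within counting error at 97.9 and 95.8 CPM. The antisense Emx2os ran from 4.17 CPM in subpallial-like to 15.2 in pallial-like APs of the septal library, and from 9.54 to 77.2 in the vesicle library.

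Emx2 was high in the septal glutamatergic-like neurons of the septal library but not in those of the vesicle library. The vesicle class was 77 cells led by Gm28526, Otp and Gpc5, with 28.05 CPM (16.9 to 43.8) of Emx2. Of its cells 3.95% (0.822 to 11.1, unthinned 22.1%) were positive against 3.16% (1.74 to 5.25, unthinned 6.88%) of reference cells. The 10 leading genes of both classes included Gng8, D930028M14Rik and Onecut3, and 7 septal and 6 vesicle markers of the list were detected. Otp, which is not on that list, was among the leading genes of the vesicle class only. Whether the 2 classes hold the same cell type was not tested, so they should not be set side by side.

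Lhx2 was the member found most widely. In the septal library the unnamed neurons had the most, 1103 CPM (1074 to 1133), and pallial glutamatergic-like neurons 766 (720.4 to 815). Cajal-Retzius-like cells and septal glutamatergic-like neurons did not differ, at 628 and 626 CPM. BP-like cells held 557 (539 to 576) and pallial-like APs 450.4 (441 to 459), with 89.4% (87.5 to 91.1, unthinned 96.2%) of these APs positive at the fixed depth. Hem-like progenitors held 214 (196 to 233), subpallial-like APs 153 (147 to 159) and septal-like APs 111 (105 to 117). The septal-like APs were thus the lowest of these AP classes, above the pooled reference cells at 70.2 (57.5 to 84.8). The erythroid-like cells of that reference held 107 CPM, close to the septal-like level, so septal-like APs are not shown to be above background.

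The vesicle library also had the most Lhx2 in pallial neurons, but more in APs than in BPs, with 726 CPM (704 to 749) in pallial glutamatergic-like neurons, 614 (604 to 623) in pallial-like APs and 558 (539.6 to 577) in BP-like cells. Ventral pallial-like APs held 411 (399.6 to 422). Subpallial-like, septal-like and hem-like progenitors formed a lower group at 229, 221 and 198 CPM. Choroid plexus-like cells, which secrete cerebrospinal fluid, held 46.9 (40.9 to 53.5), within counting error of reference cells at 53.8 (47.6 to 60.6). GABAergic-like neurons held 31.4 CPM in the septal and 43.3 in the vesicle library, no higher than the pooled reference cells in either. The vesicle values of both classes lay above those of erythroid-like and mesenchyme-like cells, at 20.1 and 17.5 CPM, so they are not shown to be background.

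Dmrta2 and Dmrt3 were both high in hem-like progenitors and differed in their reach into neurons. Dmrta2 was highest in Cajal-Retzius-like cells, with 475 CPM (449 to 503) in the septal library and 246 CPM (222 to 271) in the vesicle library. Hem-like progenitors came next, with 264 (244 to 285) and, within counting error of them, 224 (215 to 233). Pallial-like APs, at 212 and 129 CPM, did not differ from BP-like cells, at 224 and 133. The choroid plexus-like class of the vesicle library held 193 (180.2 to 206), more than pallial-like APs. In subpallial-like APs Dmrta2 was found in 13.1% (11.1 to 15.3, unthinned 19.9%) and 4.64% (3.92 to 5.46, unthinned 12.7%) of cells, within the interval of the background share for the class as a whole. One subpallial-like cluster of the vesicle library, led by Mctp1, Gm32647 and Elf4, stood above the others with 58.9 CPM against 4.57 to 16.02.

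Dmrt3 was highest in hem-like progenitors, with 110.4 CPM (97.7 to 124) and 155 CPM (147 to 162). At the fixed depth 51.8% (43.2 to 60.3, unthinned 75.2%) and 41.1% (36.3 to 46.1, unthinned 78.7%) of hem-like cells were positive. Pallial-like APs had 34 (31.6 to 36.6) in the septal library, equal within counting error to Cajal-Retzius-like cells at 38.9 (31.7 to 47.3). In the vesicle library pallial-like APs, at 80.4 (77.03 to 83.9), lay with choroid plexus-like cells at 91.6 (83.1 to 101) and Cajal-Retzius-like cells at 68.9 (56.9 to 82.7). Subpallial-like APs were at background for Dmrt3 in both libraries, with 0.772% (0.334 to 1.52, unthinned 1.28%) and 1.01% (0.682 to 1.44, unthinned 3.65%) of cells positive. In ventral pallial-like APs the share, 2.74% (1.66 to 4.24, unthinned 13.1%), had an interval that overlapped that of reference cells, 1.13% (0.367 to 2.61, unthinned 3.64%).

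The levels of pallial-like and subpallial-like APs were then set against each other to ask how far each gene differed between dorsal and ventral telencephalic progenitors. A gene was compared where the 2 classes together held at least 50 of its UMIs, and a fold of at least 2 was counted. All 6 members were at least 2-fold higher in pallial-like APs in both libraries, beside 2.54% of all genes compared in the septal library and 3.01% in the vesicle library. The genes fell into a steep and a shallow set. Emx1 was 9.99-fold (8.93 to 11.2) and 25.8-fold (21.9 to 30.6) higher, Dmrta2 9.56-fold (8.598 to 10.7) and 6.67-fold (6.2 to 7.17), and Dmrt3 37.5-fold (22.6 to 67.4) and 22.6-fold (19.3 to 26.5). Pax6, at 3.53-fold (3.33 to 3.75) and 2.79-fold (2.66 to 2.93), and Lhx2, at 2.94-fold (2.81 to 3.07) and 2.68-fold (2.62 to 2.75), were shallow in both. Emx2 was 2.96-fold (2.78 to 3.15) in the septal and 5.69-fold (5.39 to 6.01) in the vesicle library. Emx1 and Dmrt3 had subpallial shares at the background in both libraries, so their folds are values against background, and so had Dmrta2 in the septal library. The vesicle fold of Dmrta2 is an average over unlike clusters, since the one led by Mctp1 held 58.9 CPM, near ventral pallial-like APs at 64.2. These folds do not place the border of a gene. Emx1 and Dmrt3 were already near the pooled reference in ventral pallial-like APs, a class whose own side is unsure because 29.0% of its cells had Gsx2. The subpallial shares of Pax6, Emx2 and Lhx2 were above background, with 33.5% (30.6 to 36.5, unthinned 43.7%) and 12.8% (11.6 to 14.01, unthinned 29.3%) for Pax6, 40.9% (37.9 to 43.99, unthinned 55.6%) and 10.5% (9.39 to 11.6, unthinned 29.4%) for Emx2 and 68.6% (65.7 to 71.4, unthinned 80.3%) and 47.6% (45.8 to 49.4, unthinned 79.2%) for Lhx2.

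A list of 20 other patterning genes and LIM cofactors did not move one way in this comparison. In the septal library 18 of the 20 could be compared, of which 5 were at least 2-fold higher and 4 at least 2-fold lower in pallial-like APs (lower among all genes, 3.76%). All 20 were compared in the vesicle library, with 8 higher and 6 lower (lower among all genes, 6.7%). Six3, a forebrain homeobox gene, had the widest difference in both, with log2 fold changes of -3.45 and -4.18. Lmo1, a LIM-only protein that competes with LIM-homeodomain proteins for their cofactor, was also lower in pallial-like APs, by log2 fold changes of -2.86 and -2.96. Dmrta1, a relative of Dmrta2, had a log2 fold change of 3.01 in the septal library. Sp8, a zinc-finger gene, and the antisense Emx2os had 3.07 and 3.02 in the vesicle library.

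Against septal-like APs, 4 of 6 members were at least 2-fold higher in pallial-like APs in each library, beside 2.71% and 2.17% of all genes. Emx1 (5.21- and 3.25-fold), Lhx2 (4.05- and 2.77-fold) and Dmrt3 (7.57- and 6.11-fold) were so in both. Pax6 passed in the septal library only, with 3.53-fold (3.29 to 3.79) against 1.53-fold (1.45 to 1.61), and Emx2 in the vesicle library only, with 2.101-fold (2 to 2.21) against 1.895-fold (1.79 to 2.01). Emx2 and Dmrta2 lay near the 2-fold line in both, Dmrta2 with 1.93-fold (1.81 to 2.05) and 1.89-fold (1.78 to 2.01). Of the 20 other patterning genes, 18 could be compared in the septal library, with 7 higher and 3 lower (lower among all genes, 7.22%), and 20 in the vesicle library, with 8 higher and 3 lower (7.45%). Their widest differences were those of Six3, lower in pallial-like APs by log2 fold changes of -4.48 and -4.54, and of the nuclear receptor Nr2f1, 3.23 and 4.25. Septal-like clusters differed among themselves. In the septal library the one led by Neurog1 held 79.02 CPM of Emx1 and those led by Fgf17 and by 9230105E05Rik 30.9 and 16.7. In the vesicle library the one led by Prok2 held 130 CPM of Pax6 and 111 of Emx2. The one led by Pax5 and Fgf17 held 50.7 and 73.6, and each pallial-like cluster 155 of Pax6. Gsx2 was found in 17.1% and 2.15% of the cells of these septal-like clusters. The vesicle folds of Pax6 and Emx2 are thus averages over unlike clusters.

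Against hem-like progenitors the members split. Lhx2 was higher in pallial-like APs, 2.11-fold (1.93 to 2.303) in the septal and 3.099-fold (2.96 to 3.24) in the vesicle library, and Pax6 was 2.46-fold (2.18 to 2.78) and 1.63-fold (1.52 to 1.75) higher. That makes 2 members at least 2-fold higher in the septal library (all genes, 3.23%) and 1 in the vesicle library (3.49%). Dmrt3 was 3.25-fold (2.81 to 3.74) and 1.92-fold (1.802 to 2.05) higher in hem-like progenitors, and was the 1 member at least 2-fold lower in pallial-like APs of the septal library, beside 7.32% of all genes. There were 0 members at least 2-fold lower in the vesicle library, beside 7.05%. Dmrta2 was higher in the hem in both libraries, with pallial to hem ratios of 0.805 (0.741 to 0.875) and 0.575 (0.546 to 0.606), and so was Emx2, by less, at 0.894 (0.823 to 0.973) and 0.836 (0.798 to 0.876). Emx1 had a ratio of 1.03 (0.933 to 1.13) in the septal library, where the interval held 1, and was higher in the hem of the vesicle library, at 0.799 (0.743 to 0.8596). Of the 20 other patterning genes 5 were higher and 2 lower of 17 compared in the septal library, and 7 higher and 3 lower of 20 in the vesicle library. Six3 had log2 fold changes of -2.66 and -2.47.

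Ventral pallial-like APs, from the vesicle library alone, had a profile of their own. Against pallial-like APs, Pax6 was 1.71-fold (1.63 to 1.79) higher, under the 2-fold line, so 0 of 6 members counted as higher (all genes, 3.14%). Emx1, Emx2, Dmrta2 and Dmrt3 were the 4 members at least 2-fold lower (all genes, 2.98%). The levels of Emx1 and Dmrt3 were 7.33-fold (6.19 to 8.74) and 6.74-fold (5.72 to 7.99) higher in pallial-like APs, those of Emx2 and Dmrta2 2.15-fold (2.02 to 2.28) and 2.01-fold (1.86 to 2.17). Lhx2 was 1.49-fold (1.45 to 1.54) higher there. Of the 20 other patterning genes 5 were higher and 3 lower. Sp8 was lower in ventral pallial-like APs by a log2 fold change of -3.01, and Six3, Meis1 and Pou3f2 were higher by 2.88, 2.33 and 2.002.

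**Figure D2:**
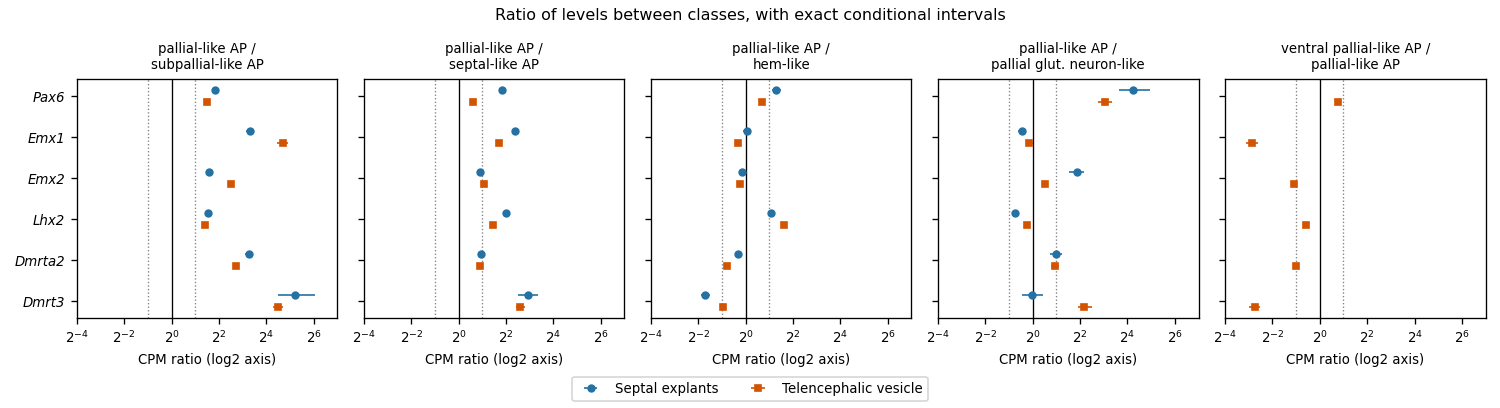
Ratio of levels between 2 cell classes for each gene, on a log2 axis, with exact conditional binomial intervals as bars (most are smaller than the point) and dotted lines at 2-fold either way. Circles are the septal explants and squares the telencephalic vesicle. All 12 points of the pallial to subpallial panel lie right of the 2-fold line; in the hem panel Lhx2 and Pax6 lie right of equality and Dmrt3 and Dmrta2 left of it.

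To see the gradients along an order of cells, pallial-like, ventral pallial-like and hem-like progenitors (1368 cells in the septal and 2189 in the vesicle library) were ordered by the UMIs of 7 lateral against 10 medial genes, none of them members, and cut into 5 bins of equal size. Most of these genes are also on the lists that named the ventral pallial-like and hem-like classes, so the order is not independent of the class names. Bin 1 is the medial end. Hem-like cells made up 50.4% of it in the septal and 87.4% in the vesicle library, and ventral pallial-like cells 80.8% of vesicle bin 5. Pax6 was higher in each bin than in the one before, from 179.5 to 348 CPM in the septal and from 93.7 to 264 in the vesicle library. Dmrt3 had the steepest opposite slope, from 81.5 to 21.6 and from 149.6 to 18.3 CPM.

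In the vesicle library 4 members were at least 2-fold higher at the medial end, beside 7.43% of all genes that neither made the order nor are members, with ratios of the 2 end bins of 6.09 (5.14 to 7.26) for Emx1, 2.38 (2.21 to 2.56) for Emx2, 2.93 (2.69 to 3.19) for Dmrta2 and 8.16 (6.98 to 9.58) for Dmrt3. In the septal library, whose order holds no ventral pallial-like cells, Dmrt3 alone passed with 3.77 (3.03 to 4.73), beside 4.41% of those genes, and Emx1, Dmrta2 and Emx2 had 1.45 (1.32 to 1.59), 1.35 (1.24 to 1.47) and 1.25 (1.148 to 1.35). At a coarser clustering that gave no hem-like or ventral pallial-like class in the vesicle library, 1 member passed there. Pax6 was 1.94 (1.79 to 2.102) and 2.81 (2.62 to 3.03) times as high at the lateral end, so 0 septal members and 1 vesicle member were at least 2-fold higher there, beside 1.49% and 4.48% of those genes. Lhx2 peaked between the ends, with 355, 513 and 358 CPM in bins 1, 2 and 5 of the septal library and 214, 579.6 and 464 in bins 1, 3 and 5 of the vesicle library. Both ends of the vesicle order, which were mostly hem-like and ventral pallial-like cells, thus held less Lhx2 than the bins between them. The lateral septal bin was made up of pallial-like APs alone, so it shows no antihem.

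Differences between the end bins were also present inside the pallial-like class for most members, though not always as even slopes. With hem-like and ventral pallial-like cells left out, the lateral to medial ratio of Pax6 was 1.481 (1.37 to 1.602) and 1.68 (1.52 to 1.86). The medial to lateral ratio of Emx1 was 1.59 (1.44 to 1.76) and 1.71 (1.476 to 1.98), and that of Dmrt3 2.52 (1.98 to 3.25) and 1.76 (1.52 to 2.05). Emx2 had 1.27 (1.17 to 1.39) and 1.37 (1.25 to 1.49). For these 3 genes most of the vesicle drop lay in bin 5. From bin 1 to bin 5 Emx1 stood at 93, 95.2, 88.4, 83.2 and 54.4 CPM there. Dmrt3 stood at 93.6, 83.2, 91.7, 83.7 and 53.1, and Emx2 at 223, 210, 234, 204 and 163. Dmrta2 had 1.29 (1.18 to 1.42) in the septal library, whereas in the vesicle library its interval held 1, 1.05 (0.945 to 1.18). Lhx2 went in different directions, 1.44 (1.34 to 1.53) in the septal and 0.929 (0.883 to 0.977) in the vesicle library.

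**Figure D3:**
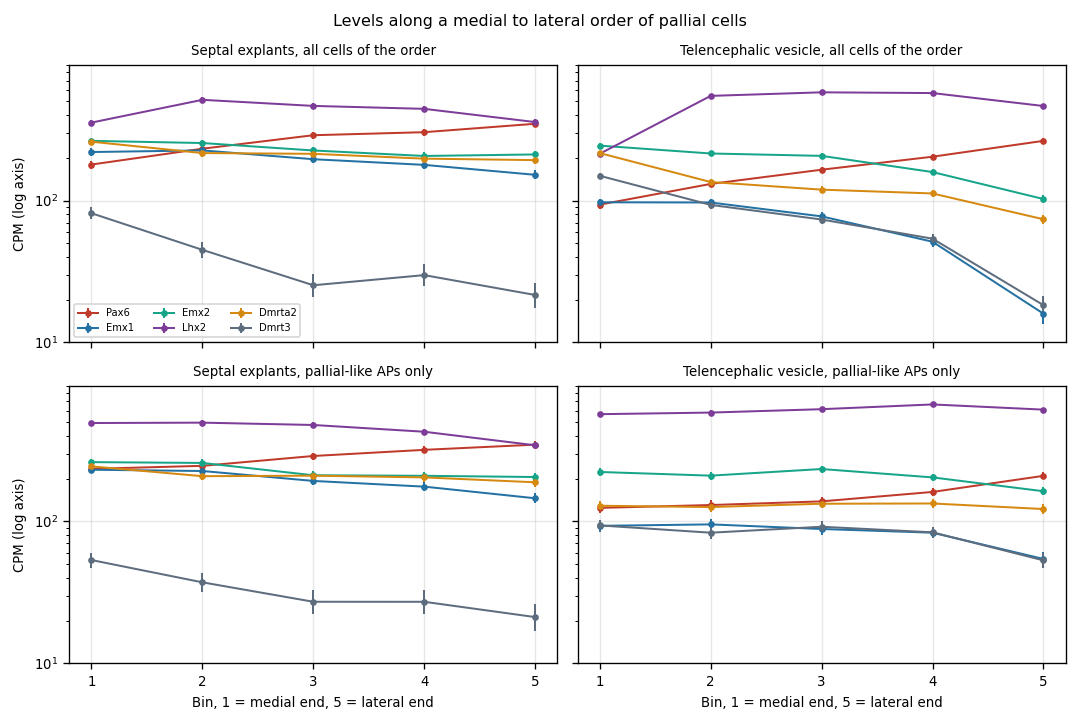
Level of each gene in CPM (log axis) along 5 bins of cells ordered from the medial end (1) to the lateral end (5), with exact Poisson intervals as bars. The upper panels hold pallial-like, ventral pallial-like and hem-like progenitors and the lower panels pallial-like APs only, with septal explants left and telencephalic vesicle right. The Pax6 line climbs from left to right in all 4 panels, and the Dmrt3 line is lower at bin 5 than at bin 1 in all 4.

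The pallial-like APs were compared with pallial glutamatergic-like neurons to ask which genes were kept on differentiation. In each library 2 of 6 members were at least 2-fold higher in APs, beside 19.5% and 22.2% of all genes. Pax6 was one in both, 19.1-fold (12.3 to 31.2) and 8.26-fold (6.81 to 10.1) higher. The other was Emx2 in the septal library, 3.602-fold (2.91 to 4.51), and Dmrt3 in the vesicle library, 4.54-fold (3.71 to 5.61). Emx2 was 1.42-fold (1.32 to 1.54) in the vesicle library and Dmrt3 0.991-fold (0.735 to 1.37) in the septal library. Dmrta2 was just under the line in both, with 1.96-fold (1.66 to 2.33) and 1.92-fold (1.73 to 2.14). Lhx2 was higher in neurons in both, 1.702-fold (1.59 to 1.82) and 1.18-fold (1.14 to 1.23). Emx1 was 1.37-fold (1.22 to 1.52) higher in neurons of the septal library. In the vesicle library its neuron to AP ratio was 1.103 (0.9999 to 1.22), with an interval that held 1. Of the 20 other patterning genes, 7 were higher and 4 lower in APs of the septal library (lower among all genes, 15%) and 6 higher and 5 lower in the vesicle library (17.4%), led by Lhx9, a LIM-homeodomain relative of Lhx2, with log2 fold changes of -5.82 and -6.17. The septal neuron class held only 99 cells, and the unnamed neuron clusters, when added, raised it to 504 cells and moved 4 members. The Emx2 ratio was then 0.958 (0.905 to 1.02) and that of Dmrta2 1.11 (1.04 to 1.19). Pax6 was 7.68-fold (6.74 to 8.78) higher in APs, and Lhx2 2.29-fold (2.22 to 2.37) higher in neurons, past the 2-fold line. The septal calls on Emx2 and Lhx2 thus depend on how neurons were named.

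The same cells with BP-like ones between them, 1861 in the septal and 3104 in the vesicle library, were ordered by the UMIs of 11 neuron genes against 9 AP genes and cut into 10 bins. Pax6 declined early. It stood at 301 CPM (282 to 321) in bin 1 of the septal library, 263 in bin 6, 227 in bin 7, 69.9 in bin 8, where BP markers peaked, and 27.9 in bin 10. Its vesicle level stood at 197 CPM in bin 1, 220 in bin 2, 173 in bin 6, 86.1 in bin 7, where BP markers peaked, and 18.5 in bin 10. Emx1 and Lhx2 had their maxima after the AP bins, in bins of BP-like cells or of BP-like cells and neurons. Emx1 reached 418 CPM (392 to 446) in bin 8 and 143 CPM (129.6 to 157) in bin 7, against 172 and 74.7 in bin 5 and 234 and 55.6 in bin 10.

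Lhx2 reached 717 CPM (681 to 754) in bin 9 of the septal library and 742 CPM (708 to 777) in bin 8 of the vesicle library, against 405 and 611 in bin 5. Dmrta2 stayed between 177 and 235 CPM in bins 1 to 9 of the septal library and was 133 in bin 10. Its vesicle maximum was in bin 6, 134 CPM, and 56.8 in bin 10. Emx2 was at its lowest around the BP peak in the vesicle library, with 104 CPM in bin 8 against 186 in bin 5 and 142 in bin 10. Dmrt3 was 40.7 and 36.4 CPM in bin 1 and 20.4 and 8.86 in bin 10, with a vesicle maximum of 78.7 in bin 5. Region moves with this order in the vesicle library, where ventral pallial-like cells made up 57.2% of bin 1 and 14.1% of bin 6, and their part in the early bins was not tested. The last bin was 97.7% neuron-like there and 34.4% in the septal library, where the rest were BP-like cells.

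The septal order held both BP-like clusters, and the 225 cells of the one led by Shox2 and Chodl, which also carried septal neuron markers, lay in its late bins. Without them, 1636 cells remained and the late bins changed. Emx1 reached 498 CPM in bin 9 and held 391 in bin 10, which was 52.8% neuron-like. Lhx2 no longer came down at the end, with 777 CPM in bin 9 and 806 in bin 10. Pax6 still declined, from 289.9 CPM in bin 1 to 216 in bin 8 and 40.6 in bin 10. This order was chosen after the data were seen.

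**Figure D4:**
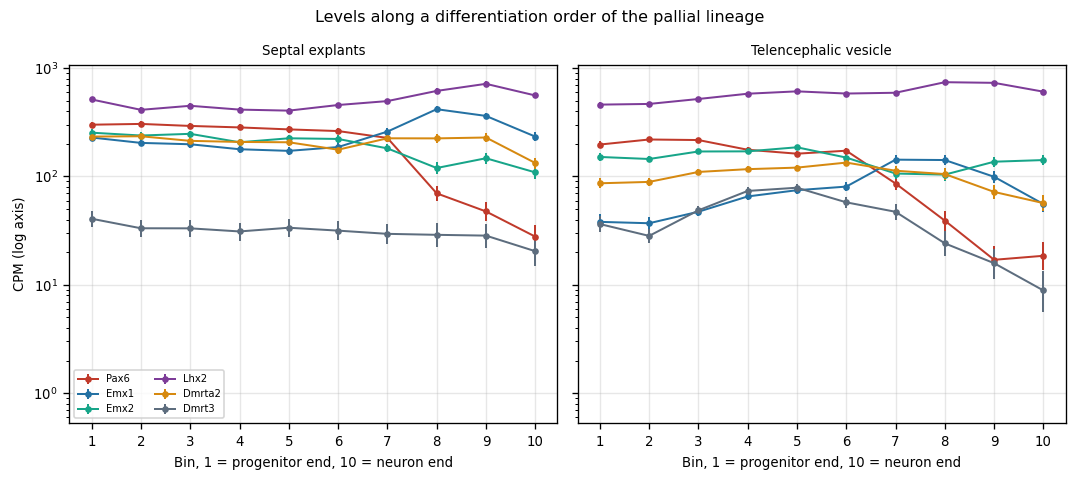
Level of each gene in CPM (log axis) along 10 bins of pallial-like APs, ventral pallial-like APs, BP-like cells and pallial neurons ordered from the progenitor end (1) to the neuron end (10), with exact Poisson intervals as bars, for septal explants (left) and telencephalic vesicle (right). The Pax6 line drops by bin 8 in both panels, whereas the Emx1 and Lhx2 lines have their maxima in bins 7 to 9.

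Whether the 6 genes were used by the same cells was asked from co-detection at the fixed depth. Over all APs, cells with both genes of a pair were more frequent than the product of their shares gives for 15 of 15 pairs in the septal library (3207 cells, ratios 1.07 to 1.89, median 1.25) and 13 of 15 in the vesicle library (6741 cells, 0.986 to 2.72, median 1.36), counted where the exact interval lay above 1. The interval treats the number of cells with both genes as a Poisson count and the expected number as fixed. It is too wide where most cells hold a gene, so a pair not above 1 is not shown to be independent. Emx1 with Dmrt3 had the highest ratio in both, 1.89 (1.67 to 2.14) and 2.72 (2.25 to 3.25). Dmrta2 with Dmrt3, the related pair, had 1.64 (1.45 to 1.85) and 2.03 (1.78 to 2.31). The 2 vesicle pairs not above 1 were Lhx2 with Dmrt3 and with Dmrta2, at 0.986 (0.879 to 1.102) and 0.993 (0.918 to 1.07). With the expected number computed within groups of cells of the same cluster and similar depth, the medians were 1.04 and 1.04 and 1 and 2 pairs stayed above.

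Inside pallial-like APs the number of pairs above 1 depended on the processing. At the main settings 0 of 15 pairs lay above 1 in either library, with ratios of 0.971 to 1.148 over 1175 cells and 0.884 to 1.21 over 957 cells, and a median of 1.01 in both. Emx1 with Dmrt3 was again the highest, 1.148 (0.993 to 1.32) and 1.21 (0.907 to 1.58), and the intervals held 1. In the septal library 197 cells held this pair against 171.6 expected, and the wide interval does not show independence. Without thinning, 1 septal and 10 vesicle pairs lay above, and in the vesicle library other clusterings gave 2 to 4. Pax6 with Emx1 had the lowest vesicle ratio, 0.884 (0.704 to 1.096). In ventral pallial-like APs 1 pair of 15 was above, Pax6 with Dmrta2 at 1.28 (1.03 to 1.58). With the expected number computed within cluster and depth groups it had 1.23 (0.983 to 1.51), and 0 pairs stayed above.

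Pallial-like APs carried several members each. At the fixed depth the median number found per cell was 4 of 6 in the septal library, with at least 4 in 76.3% (73.8 to 78.7) of cells, against 7.24% (5.74 to 8.99) of subpallial-like APs and 1.54% (0.0389 to 8.28) of reference cells. Hem-like progenitors, at 64.5% (56.05 to 72.4), Cajal-Retzius-like cells, at 59.9% (52.8 to 66.7), and BP-like cells, at 55.8% (51.04 to 60.4), lay below them. At the shallower depth of the vesicle library the median was 2 and the shares with at least 4 were 16.8% (14.5 to 19.3) in pallial-like APs, 19.95% (16.2 to 24.2) in hem-like progenitors, 5.04% (3.54 to 6.94) in ventral pallial-like APs and 0.606% (0.359 to 0.956) in subpallial-like APs. At full depth all 6 genes were found in 30.4% and 30.7% of pallial-like APs and in 39.6% and 39.1% of hem-like progenitors.

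**Figure D5:**
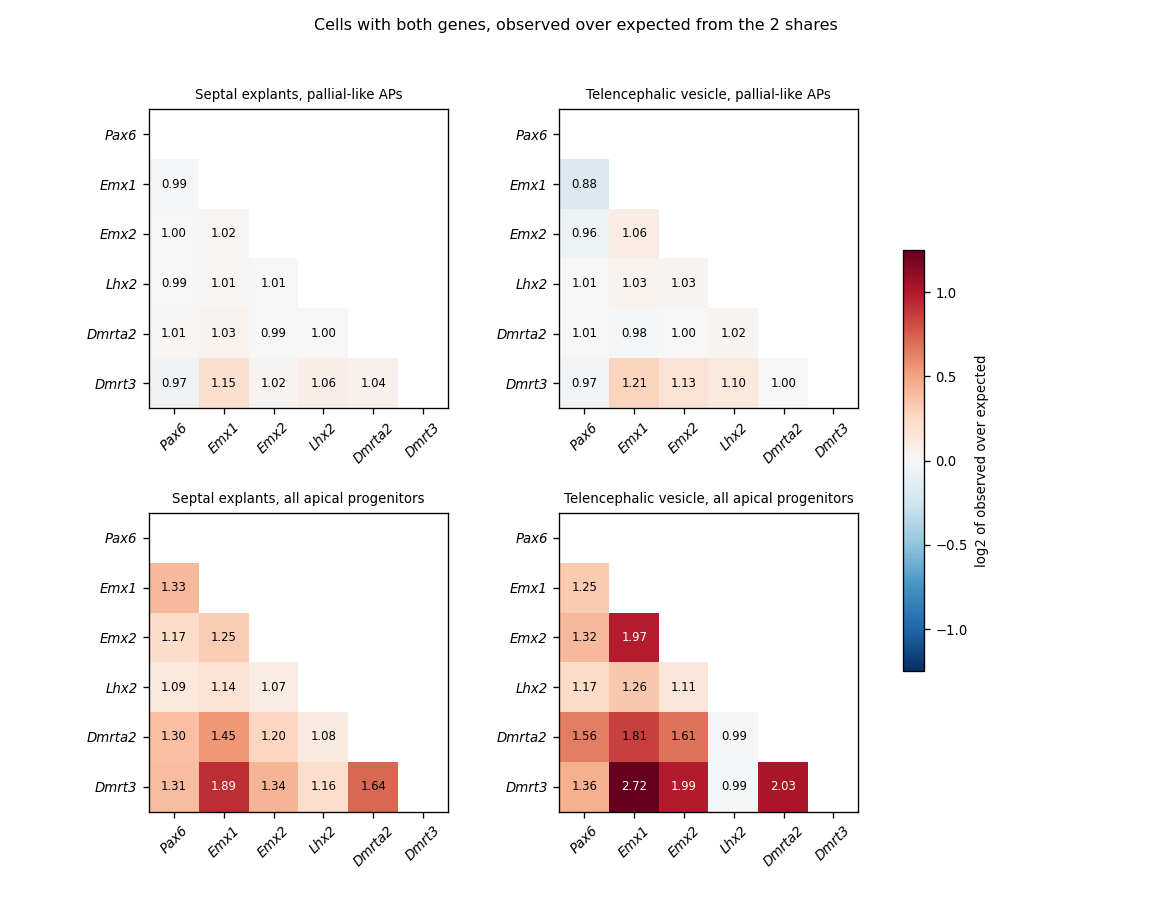
Number of cells with both genes of a pair over the number expected from the 2 shares, for cells thinned to a fixed depth (printed ratio, with colour giving its log2). The upper panels show pallial-like APs and the lower panels all apical progenitors, with septal explants left and telencephalic vesicle right. Ratios are 0.88 to 1.21 in the upper panels and reach 1.89 and 2.72 for Emx1 with Dmrt3 in the lower ones.

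The genes whose pattern was most like that of a member were ranked by the lower of the 2 libraries' Pearson correlations of log2(CPM + 1) over cell classes, 13 in the septal and 17 in the vesicle library, among 10772 genes. Classes of a library share its depth and free RNA, so these values describe likeness only. For Pax6 the nearest were Rpf1 (0.83), Sox6 (0.80) and Nob1 (0.80), and for Emx1 AI849053 (0.80), Neurog2 (0.80) and Dmrta1 (0.79). Emx2 and Dmrta2 had the same 2 nearest genes, Dmrta2os (0.86 and 0.89) and Dach1 (0.80 and 0.84), followed by Emx2os (0.79) and Rspo3 (0.81). For Lhx2 they were Gm27197 (0.90), Gm26604 (0.77) and Eomes (0.74). For Dmrt3 they were the signalling genes Wnt7b (0.87), Rspo3 (0.85) and Wnt8b (0.80). Neurog2, Eomes, Wnt7b, Rspo3 and Wnt8b are on the lists that named the classes.

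Among the members themselves, over 15 septal and 13 vesicle progenitor clusters, Emx2 with Dmrta2 had correlations of 0.92 and 0.88 and Dmrta2 with Dmrt3 0.82 and 0.93. Lhx2 stood apart in the vesicle library, with -0.16 to Dmrt3, -0.11 to Dmrta2 and 0.18 to Emx2, whereas the same pairs had 0.68, 0.61 and 0.71 in the septal library. Clusters of 1 library are not independent samples, and these values carry no test.

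Within the septal library the reporters gave a split of the pallial-like APs. Of the 1219 cells, 650 had at least 3 YFP UMIs and no tdTomato, 52 had at least 1 tdTomato UMI and no YFP, and 371 had neither. Lhx2 stood at 381 CPM (370.0 to 392) in YFP cells, 659 CPM (608 to 714) in tdTomato cells and 532 CPM (514 to 551) in cells with neither. Emx1 stood at 170.3 CPM (163 to 178), 229.5 CPM (199.6 to 263) and 237 CPM (225 to 249). Both were lower in YFP cells than in the other two sets. Pax6, at 271 CPM (262 to 280.4), 273 CPM (240.3 to 309) and 309 CPM (295 to 324), differed less. YFP comes from E11.5 PGKCre embryos and tdTomato from E12.5 Dbx1Cre embryos, so stage, Cre line and Dbx1 history cannot be told apart here.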

How the data were processed

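The authors made 2 pooled droplet libraries and deposited raw UMI counts per gene and barcode, made with Cell Ranger 2.1.1 (septal explants) and 7.1.0 (telencephalic vesicle) on mm10 per the processing notes. Whether intronic reads were counted is not given in the sources used here.

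The deposited counts were read with scanpy 1.11.5. Barcodes within 3 median absolute deviations of the median mitochondrial share were kept, and doublets called by Scrublet were removed. Clusters (Leiden, resolution 1.5, 2000 variable genes without the members) were named by at least 3 markers. How ties between names were settled was set after the clusters were seen. Values of 1 AP class and of some patterning genes are not reported here. The members and all lists were chosen with earlier results of these data known. Named genes were the members, the 20 other patterning genes (values for those with the largest folds) and the 3 genes most alike to each member. Fold ratios with their intervals, and co-detection ratios without the width of their intervals, were tested on simulated data, and thinning on deposited counts. Clustering, the naming of clusters and the orders of cells were not tested in this way.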

Additional observations from a re-analysis of the deposited data

How the results depend on the processing

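No paired analysis was possible because each dissection is 1 library and its cells carry no replicate number, so no library could be left out either. The 6 of 6 members higher in pallial-like than in subpallial-like APs were found in all 12 alternatives of each library. Against septal-like APs, 4 to 6 septal and 3 to 6 vesicle members were higher. Against neurons, 1 septal member instead of 2 was higher at Leiden resolutions of 0.8 and 2.5, with the members kept among the variable genes, with another seed, with all deposited barcodes and with the unnamed neurons added. The Emx2 ratio went from 3.602 to 0.962 at resolution 0.8 and to 0.958 with those neurons added, and the cause was not tested. Against the hem, 1 septal member was higher at resolution 2.5, and 2 vesicle members at a fold of 1.5, where 1 was also higher in ventral pallial-like APs. Members found per pallial-like AP came to 5 without thinning and 3 at a minimum of 2 UMIs in the septal library, and to 3 with all barcodes or a second draw of UMIs, 5 without thinning and 1 at that minimum in the vesicle library. Pairs above expectation came to 1 in the septal library with another seed, all barcodes, no thinning, the 2-UMI minimum or the second draw. In the vesicle library they came to 4 and 2 at resolutions 0.8 and 2.5, 3 with the members kept and with 1 rule for settling ties left out, 1 with doublets kept and 10 without thinning. The members at least 2-fold higher at the vesicle's medial end came to 1 at resolution 0.8 and with region markers set against progenitor clusters alone. Of 678 alternative folds of single members, 403 lay inside the interval of the main value and 2 were reversed. In the vesicle library, pallial glutamatergic-like neurons were not found at resolution 0.8, with all barcodes or with another seed, the hem-like class not at 0.8, and the ventral pallial-like class not at 0.8 or with the progenitor-only markers, so those comparisons gave no value. One pooled library per dissection and the depth per cell limit what Dmrt3 shares can show.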
